A study of Mus musculus with 12 samples.

Results

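Passage from G1 into S phase, the step at which a resting cell commits to copying its DNA, is driven by the D-type cyclins. A D-type cyclin binds Cdk4 or Cdk6, the pair phosphorylates the retinoblastoma protein, and E2F factors are then free to switch on the genes of DNA replication. The Cip/Kip inhibitors p21 (gene Cdkn1a) and p27 (Cdkn1b) restrain Cdk complexes, and p21 is the classical target of the transcription factor p53 (Trp53), which also switches on Mdm2, the ubiquitin ligase that marks p53 for destruction, and Gadd45a, a stress sensor of the DNA damage response. Most hepatocytes of an adult liver rest outside the cycle, and a rise of cyclin D1 is a hallmark of their return to it after loss of liver tissue.

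The mRNA of these 10 genes (Ccnd1, Ccnd2, Ccnd3, Cdk4, Cdk6, Cdkn1a, Cdkn1b, Mdm2, Trp53 and Gadd45a) was examined in the livers of 6 Floxed and 6 LKO mice, all male, C57BL/6 and 30 weeks old, and all kept on chow with 20% casein. Floxed mice carried Phgdh flox/flox, and their LKO littermates were Alb+/Cre;Phgdh flox/flox, so both groups had the floxed alleles and only LKO mice had Cre, which the albumin promoter drives in hepatocytes. Phgdh encodes the first enzyme of serine synthesis, and other liver cells keep the gene in LKO mice. Each liver was read on 1 single-color array. The genes were chosen by name, and a probe belonged to one of them if its RefSeq accession did. They had 14 of the 39429 probes, and 12 of the 14 were well above background on all 12 arrays. In all, 9 of the 10 genes were tested among 16915 genes. Cdk6 was not.

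Values are log2 intensities after quantile normalization, and differences are LKO minus Floxed on that scale. Called means an unadjusted p below 0.05 in limma, the criterion of the study's array methods. The exact permutation tests are two-sided, over the 924 arrangements of the arrays. The arrays came on 3 slides, and only slide 2 carried both genotypes, Floxed mice 5 and 6 beside LKO mice 1 and 2. The other Floxed mice were on slide 1 and the other LKO mice on slide 3. Between 21614 and 24252 probes per array were well above background, and with 6 arrays per genotype it is their number that sets the precision. Phgdh itself measured 4.81 to 5.50 in Floxed mice (median 5.17) and 4.23 to 5.30 in mice labeled LKO (median 4.57), a difference of -0.48 (limma p = 0.0179, adjusted p = 0.451, exact permutation p = 0.0346). The arrays labeled LKO 1 and LKO 2 had Phgdh values of 5.07 and 5.30, inside the Floxed range. Within slide 2 the Phgdh difference was -0.055 and not called. These are the only LKO arrays of slide 2, so every value within slide 2, and every fit that holds the slide constant, rests on them. Whether the probe reads the deleted exons was not analysed here, so LKO means the label, and values without these 2 arrays are given. Without them 2172 genes were called in place of 1413, and the 4 remaining LKO arrays then shared a slide with no Floxed array. Of 10 hepatocyte markers, all were tested and none was called. Among 47 tested markers of other cell types, 5 were called, beside 8.35% of all tested genes. They were Cr2 (0.49) and Fcer2a (0.86) of B cells, Pecam1 (0.70) of endothelium, Cftr (-0.83) of cholangiocytes, and Cel (0.54) of the pancreas. By sign, tested markers were 2 higher and 2 lower for B cells and 4 and 4 for endothelium. For cholangiocytes they were 2 and 1, and for the pancreas 2 and 0. Types with no called marker had 1 and 7 for macrophages, 0 and 4 for neutrophils, 3 and 4 for T and NK cells, and 5 and 3 for stellate cells. They had 0 and 2 for erythroid cells and 0 and 1 for adipocytes. Within slide 2, 6 of 8 macrophage markers and 4 of 4 neutrophil markers were higher. In a whole liver, fewer cells of a type and less RNA per cell cannot be told apart.

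Of the 9 tested genes, 1 was called, Ccnd1, which is 11.1% beside 8.35% of all tested genes. A share near that of all genes is no result about these 9. Ccnd1 was called lower in LKO mice, as were 3.43% of all tested genes. Calls over all genes were split 832 higher and 581 lower, and 1127 and 316 under scaling to the 75th percentile. In sign, 4 of the 9 were higher and 5 were lower, with a median difference of -0.08 beside -0.0035 for all tested genes. Of all tested genes 48.8% were higher. No gene of the array passed an adjusted p below 0.05, and the adjusted p of the 9 genes lay between 0.409 and 0.972 (limma with Benjamini-Hochberg adjustment). None of the 9 separated the genotypes without overlap, which 0.296% of all tested genes did.

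**Figure D1:**
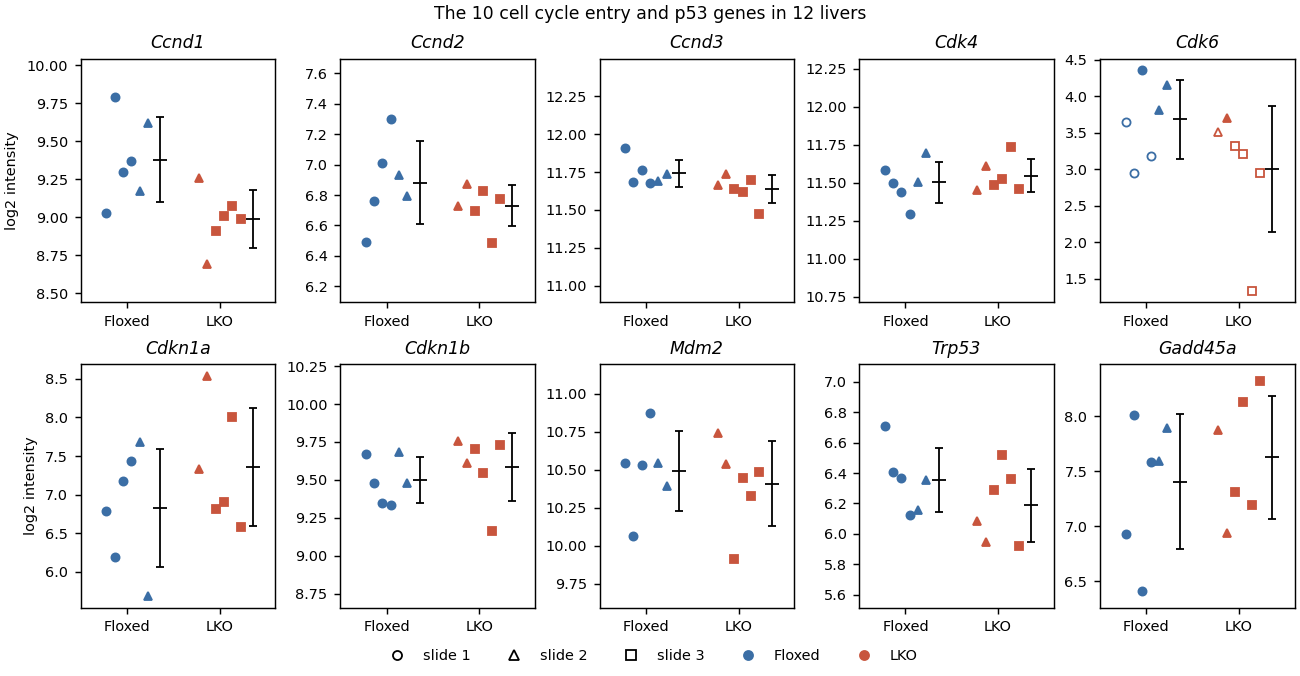
Log2 intensity of the 10 genes in 12 livers, with 1 point per array, blue for Floxed and red for LKO, a marker shape for each slide, and the mean with its SD in black beside each group. Each panel has its own range, and open symbols in the Cdk6 panel are arrays on which its probe was not well above background. Ccnd1 lay lower in most LKO mice (8.69 to 9.26 beside 9.03 to 9.79), and Cdkn1a and Gadd45a scattered widely in both groups.

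Ccnd1 encodes cyclin D1, the D-type cyclin that growth factors and Wnt signals induce. Its level ran from 9.03 to 9.79 in Floxed mice (median 9.33) and from 8.69 to 9.26 in LKO mice (median 8.998). Of the 6 LKO mice, 4 lay below the lowest Floxed mouse, and only mice 1 and 5, at 9.26 and 9.07, reached into the Floxed range. The 2 highest livers were Floxed mice 2 and 6, at 9.79 and 9.62. The difference was -0.39 with a standard error of 0.13, a fold of 0.762 (limma p = 0.0115, adjusted p = 0.409, exact permutation p = 0.0173). Within slide 2 the difference was -0.42, and LKO mice of slide 3 stood 0.376 below Floxed mice of slide 1, at means of 8.99 and 9.37. In a fit that held the slide constant Ccnd1 lost its call, and 0 of the 9 genes were then called, beside 1.87% of all tested genes. Without the arrays labeled LKO 1 and LKO 2 the Ccnd1 difference was -0.38 and stayed called, and the other 8 tested genes kept their signs with none called.

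The other D-type cyclins also had lower means in LKO mice, and neither was called. Ccnd2 ranged from 6.49 to 7.30 in Floxed mice (median 6.86) and from 6.49 to 6.88 in LKO mice (median 6.75). The lowest values of both groups were alike, and the difference of -0.15 (95% interval -0.41 to 0.11, limma p = 0.238, adjusted p = 0.882, exact permutation p = 0.262) was -0.066 without Floxed mouse 4. Ccnd3 had the tightest values of the tested genes, from 11.68 to 11.91 in Floxed mice (median 11.71) and from 11.48 to 11.74 in LKO mice (median 11.65). Here too 4 of 6 LKO mice lay below the lowest Floxed mouse, by small margins. The pooled SD of Ccnd3 was at percentile 4.54 of all tested genes, and its difference was -0.10 (95% interval -0.26 to 0.05, limma p = 0.166, adjusted p = 0.824, exact permutation p = 0.0584). A second Ccnd3 probe gave -0.05 in the same direction. Within slide 2 the difference of Ccnd3 shrank to -0.0099.

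Of the kinase partners, Cdk4 was not called and Cdk6 was not tested. Cdk4 lay between 11.29 and 11.69 in Floxed mice (median 11.50) and between 11.45 and 11.73 in LKO mice (median 11.51), and nearly all values overlapped. The difference was 0.04 (95% interval -0.13 to 0.22, limma p = 0.607, adjusted p = 0.972, exact permutation p = 0.556), the same sign appeared in all 3 Cdk4 probes (0.04, 0.04 and 0.09), and within slide 2 it was -0.07. Cdk6 had 1 probe, which was well above background on 3 Floxed arrays and 1 LKO array, so it had only a bound in most livers and its level cannot be compared between the genotypes. Its values were 2.95 to 4.36 in Floxed mice (median 3.73) and 1.33 to 3.70 in LKO mice (median 3.26), with the lowest on LKO mouse 5.

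The inhibitor genes differed in how much they varied from mouse to mouse. Cdkn1b, which encodes p27, ran from 9.34 to 9.68 in Floxed mice (median 9.48) and from 9.16 to 9.76 in LKO mice (median 9.66). LKO values of 9.70, 9.73 and 9.76 exceeded the highest Floxed value, while LKO mouse 5 was the lowest of the 12 livers. The difference was 0.09 (95% interval -0.15 to 0.32, limma p = 0.449, adjusted p = 0.952, exact permutation p = 0.448), and without LKO mouse 5 it was 0.17 and not called.

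Cdkn1a, which encodes p21, had the widest range of the 9 tested genes. It ran from 5.69 to 7.69 in Floxed mice (median 6.99) and from 6.58 to 8.54 in LKO mice (median 7.12), a 7.22-fold span between the highest and the lowest of the 12 livers. LKO mice 2 and 5, at 8.54 and 8.004, stood above every Floxed mouse, Floxed mice 6 and 2, at 5.69 and 6.19, stood below every LKO mouse, and the other 8 livers were mixed. Its pooled SD was at percentile 98.6 of all tested genes. The difference was 0.53 with a standard error of 0.39 (95% interval -0.31 to 1.38, limma p = 0.198, adjusted p = 0.852, exact permutation p = 0.251), so the interval held falls as well as rises. Slide 2, with LKO mice at 7.34 and 8.54 and Floxed mice at 7.69 and 5.69, gave 1.25, whereas LKO mice of slide 3 exceeded Floxed mice of slide 1 by 0.17. Without the arrays labeled LKO 1 and LKO 2 the difference was 0.24. The probe read NM_007669, and another probe, for the transcript NM_001111099, was well above background on 0 arrays.

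**Figure D2:**
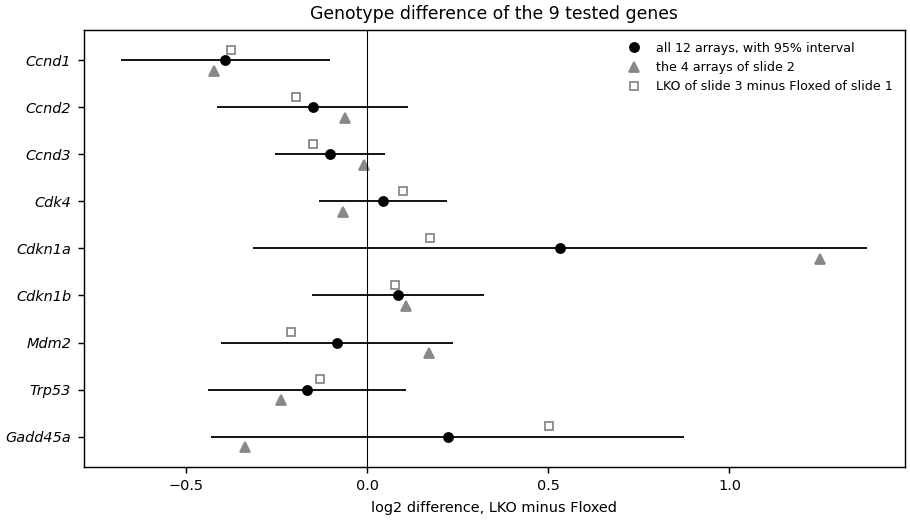
Log2 difference, LKO minus Floxed, of the 9 tested genes. Black points with lines give the 12 arrays with the 95% interval, grey triangles the 4 arrays of slide 2, and open squares LKO mice of slide 3 minus Floxed mice of slide 1. Only the interval of Ccnd1 lay wholly to one side of 0, and the slide comparisons of Cdk4, Mdm2 and Gadd45a had opposite signs.

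Trp53 and the p53 targets Mdm2 and Gadd45a had differences of both signs, and none was called. Trp53 was 6.12 to 6.71 in Floxed mice (median 6.36) and 5.92 to 6.52 in LKO mice (median 6.19), and 3 LKO mice lay below the lowest Floxed mouse. The difference was -0.17 (95% interval -0.44 to 0.11, limma p = 0.214, adjusted p = 0.864, exact permutation p = 0.227), with -0.24 within slide 2. Mdm2 was 10.06 to 10.88 in Floxed mice (median 10.54) and 9.91 to 10.74 in LKO mice (median 10.47). The groups of Mdm2 overlapped almost wholly, with the lowest value on LKO mouse 3, and the difference of -0.08 (95% interval -0.40 to 0.24, limma p = 0.585, adjusted p = 0.972, exact permutation p = 0.595) was 0.02 without that mouse and 0.17 within slide 2. Gadd45a was 6.41 to 8.01 in Floxed mice (median 7.59) and 6.94 to 8.32 in LKO mice (median 7.59). The medians of Gadd45a were alike, LKO mice 4 and 6 were highest and Floxed mouse 3 was lowest. Its pooled SD was at percentile 96.3, and the difference was 0.22 (95% interval -0.43 to 0.87, limma p = 0.475, adjusted p = 0.954, exact permutation p = 0.519), with -0.34 within slide 2.

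The stretches just before the starts of the p53 target genes are shown because p53 binds DNA at pairs of a short motif of 10 bases. RefSeq windows of 250 bases before the start (assembly GRCm38.p6) were at hand for 8 of the 10 genes, not for Ccnd1 and Ccnd2. This p53 decamer was searched by its degenerate consensus, which reads the same on both strands, and 7.13% of 32851 such windows of all genes held at least 1. Capitals mark its matches in the windows of the 3 targets, 5′ to 3′ toward the gene.
Cdkn1a, chr17:29090729-29090978 (+ strand): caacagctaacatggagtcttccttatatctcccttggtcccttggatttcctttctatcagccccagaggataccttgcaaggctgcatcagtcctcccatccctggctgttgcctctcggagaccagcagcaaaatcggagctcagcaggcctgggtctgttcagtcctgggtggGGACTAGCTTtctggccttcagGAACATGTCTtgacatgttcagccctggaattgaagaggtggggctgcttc
Mdm2, chr10:117710759-117711008 (- strand): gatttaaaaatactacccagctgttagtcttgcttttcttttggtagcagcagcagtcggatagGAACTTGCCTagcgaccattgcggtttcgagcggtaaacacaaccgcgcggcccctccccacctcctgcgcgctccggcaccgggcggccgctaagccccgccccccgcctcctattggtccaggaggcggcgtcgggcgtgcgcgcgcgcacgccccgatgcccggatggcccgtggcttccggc
Gadd45a, chr6:67037408-67037657 (- strand): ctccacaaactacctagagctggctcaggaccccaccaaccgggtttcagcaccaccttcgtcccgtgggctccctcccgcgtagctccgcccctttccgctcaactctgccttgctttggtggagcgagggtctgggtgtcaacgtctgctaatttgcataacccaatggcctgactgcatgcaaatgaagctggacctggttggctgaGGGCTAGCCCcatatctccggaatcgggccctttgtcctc
The Cdkn1a window, that of the upstream of its 2 starts, held 2 decamers, 73 and 51 bases before the start, and that of the other start held none. Mdm2 and Gadd45a held 1 each, 186 and 40 bases before the start, so neither window held a pair of exact matches. Decamers that depart from the consensus were not searched and stay in lower case. An example is tgacatgttc, right after the second Cdkn1a match, which departs only at its first base. Bases beyond the windows, those within the genes among them, were not searched. Of the other members, Trp53 held 1, 75 bases before its start, and the windows of Ccnd3, Cdk4, Cdk6 and Cdkn1b held none. A match is a string of letters and does not show that p53 was bound in these livers.

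The values of members were compared from liver to liver in 7 pairs. The first was Cdkn1a with Gadd45a. Pearson's r between them was -0.48 and Spearman's rho -0.48 over 12 livers (permutation p = 0.115 and 0.122, adjusted over 7 pairs 0.404 and 0.614), and r was -0.34 without LKO mouse 2 and Floxed mouse 6. Cdkn1a and Mdm2 had an r of 0.37 and a rho of 0.41 (permutation p = 0.238 and 0.194, adjusted 0.556 and 0.614), and r was 0.44 without the same mice. Of the 7 pairs, the lowest p was for Ccnd1 with Cdkn1a, with an r of -0.62 and a rho of -0.31 (permutation p = 0.0323 and 0.332, adjusted 0.226 and 0.614). That relation rested on Floxed mice 2 and 6, the livers with the most Ccnd1 and the least Cdkn1a, and without them r was -0.20. With all 12 livers r was -0.54 after centring each genotype and -0.68 after centring each slide. The same centrings gave -0.60 and -0.59 for Cdkn1a with Gadd45a, and 0.46 and 0.39 for Cdkn1a with Mdm2. Among the D-type cyclins r lay between -0.20 and 0.21, and between -0.49 and -0.04 after centring each genotype.

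By the rule set for the called gene, the genes most like Ccnd1 over the 12 livers were Emc6 (r = 0.88), Zc3h8 (r = 0.88) and Washc2 (r = 0.86) of 16893 compared. Of these, Zc3h8 was called, with a difference of -0.32, and Emc6 (-0.11) and Washc2 (-0.06) were not. The same was done for Cdkn1a and Gadd45a after their spread had been seen. Among the genes most like Cdkn1a were Btg1, an antiproliferative gene (r = 0.95), and Ypel2 (r = 0.92), and Arntl, the clock activator Bmal1, ranked 5 (r = 0.89). The genes most like Gadd45a were the transcript XR_105403 (r = 0.92), Phf14 (r = 0.88) and Wee1, the kinase that holds back Cdk1 and a known clock output (r = 0.87). These correlations are descriptions over 12 livers that share the genotype contrast and the slides.

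Clock genes were then read beside these 3 members. The 3 tested clock genes of the morning phase had a median r of 0.81 with Cdkn1a, and the 6 of the evening phase had one of -0.56, beside -0.01 for all genes. For Gadd45a the medians were -0.34 and 0.65, the latter over r from 0.07 (Per1) to 0.73 (Tef), beside 0.01 for all genes. For Ccnd1 they were -0.59 and 0.43, also beside 0.01, with 0 of 3 morning genes and 6 of 6 evening genes positive. Arntl was 6.11 and 6.31 in Floxed mice 2 and 6, the livers with the least Cdkn1a, and 9.39 in LKO mouse 2, the liver with the most. Per1, a clock gene of the evening phase, was called lower in LKO mice (-1.15, limma p = 0.000945, adjusted p = 0.257, exact permutation p = 0.00433) and Dbp, a clock output, was not (-0.46). Within slide 2 all 6 evening genes were lower in LKO mice (median -1.32) and all 3 morning genes higher (median 1.17). The part of clock phase in the values of Ccnd1, Cdkn1a and Gadd45a was not tested.

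**Figure D3:**
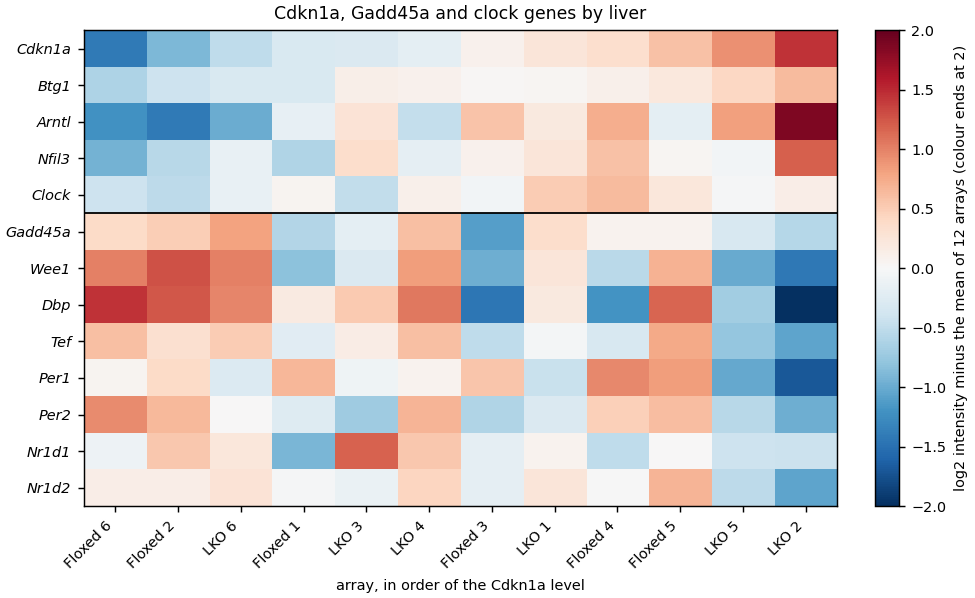
Log2 intensity minus the mean of the 12 arrays for Cdkn1a, Gadd45a and clock genes, with arrays in the order of the Cdkn1a level from left to right. Red is above and blue below the mean, and colors end at a difference of 2. Btg1 and Arntl had correlations of 0.95 and 0.89 with Cdkn1a, and Wee1, Tef and Dbp had correlations of 0.87, 0.73 and 0.69 with Gadd45a. Per1, also shown, had one of 0.07 with Gadd45a.

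Around the members, lists of genes named for their roles were read in the same fit. Of the G1/S machinery, which holds the cyclin E, pocket protein and E2F genes, 18 of 21 genes were tested, 6 were higher and 12 lower, with a median of -0.10, and 0 were called. Among the other Cdk inhibitors 1 of 5 was called, 20.0% beside 8.35% of all tested genes. It was Cdkn2d (0.38), which encodes p19 of the Ink4 group. Of 8 tested genes for the turnover of D-type cyclins and Cip/Kip inhibitors, 0 were called. Of 19 tested growth signals to the D-type cyclins, 4 were called (21.1% beside 8.35% of all tested genes), the immediate early gene Egr1 (1.53), Ccn1 (0.51), a target of Yap, Lgr5 (0.30), a Wnt target of pericentral hepatocytes, and the ligand gene Tgfa (-0.29). Tgfa separated the genotypes, with 4.67 to 5.12 in Floxed mice (median 4.71) and 4.33 to 4.66 in LKO mice (median 4.498). With the slide held constant Ccn1 (1.21) and Lgr5 (0.61) were called and Egr1 (1.06) and Tgfa (-0.23) were not, whereas without the arrays labeled LKO 1 and LKO 2 the reverse held, with Egr1 (1.35) and Tgfa (-0.30) called and Ccn1 (0.23) and Lgr5 (0.20) not. Cdkn2d was called in neither case (0.19 and 0.38).

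Most genes of S phase had higher means in LKO mice. Of 41, 39 were tested, 31 were higher and 8 lower in LKO mice, beside 48.8% of all tested genes higher. The median was 0.13, and 7 were called, all higher, which is 17.9% beside 4.92% of all tested genes called higher. They were Mcm2, Mcm3, Mcm4, Mcm5 and Mcm6 of the replicative helicase, Pold1 (0.30) of DNA polymerase delta and Chaf1a (0.29), a histone chaperone at the fork, of which Mcm3, Pold1 and Chaf1a fall outside the naming rule and, like Mcm7, were added after their values were seen. Mcm6 was 8.21 to 9.02 in Floxed mice (median 8.72) and 9.37 to 9.93 in LKO mice (median 9.62), so that the groups did not overlap. Its difference was 0.91 with a standard error of 0.14, a fold of 1.88 (limma p = 1.61e-05, adjusted p = 0.132, exact permutation p = 0.00216), and it was 1.17 within slide 2. Mcm6 was called under all 26 settings run, with the slide block among them, and its adjusted p was 0.0077 without the arrays labeled LKO 1 and LKO 2. Leaving out those arrays ended the calls of Pold1 (0.30) and Chaf1a (0.29) and kept those of the Mcm genes named here. In that fit 7 of the 39 were again called, all higher, among them genes not named here.

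The other subunits differed less. Mcm5 differed by 0.42, Mcm2 by 0.37, Mcm4 by 0.36 and Mcm3 by 0.33. Mcm7, the remaining subunit, had a difference of 0.12 (limma p = 0.195, adjusted p = 0.849, exact permutation p = 0.186). LKO mouse 5 was the highest of the 12 livers for 21 of the 39 S phase genes (53.8%), beside 15.4% of all tested genes. Before normalization its array had the lowest 75th percentile of intensity of the 12, 239, with the others up to 473. The part of that intensity in these values was not tested. Without LKO mouse 5, 4 of the 39 were called, and 1 was with the slide held constant. Of 35 genes of G2 and M phase, 18 were tested, 9 higher and 9 lower with a median of 0.005, and 0 were called. A further 17 of that list were not well above background on all arrays, Top2a and Aurkb on none.

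**Figure D4:**
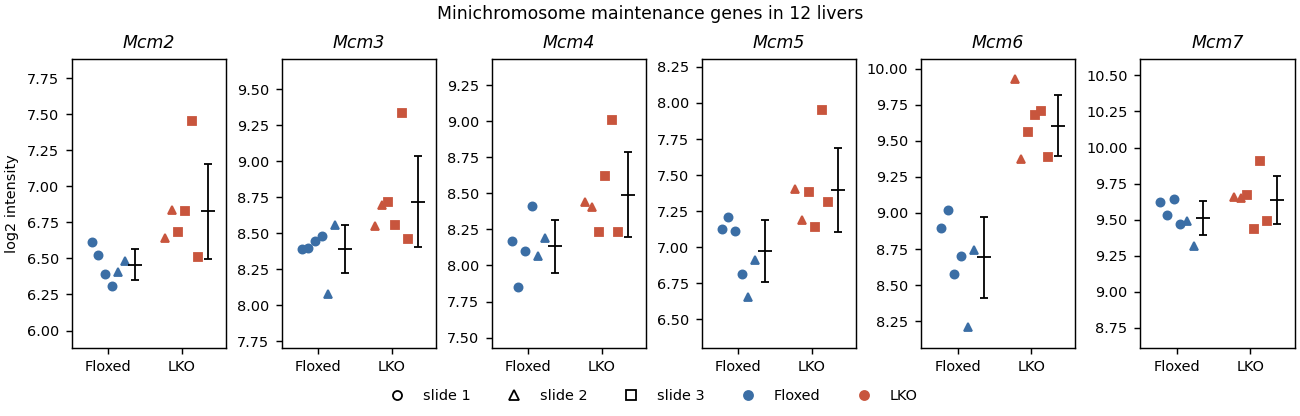
Log2 intensity of the 6 genes of the replicative helicase in 12 livers, with 1 point per array, blue for Floxed and red for LKO, a marker shape for each slide, and the mean with its SD in black. Mcm6 separated the genotypes at 9.02 and 9.37, and LKO mouse 5 was the highest point for Mcm2, Mcm3, Mcm4, Mcm5 and Mcm7.

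The upstream windows of Mcm6 and Mcm5 are shown because replication genes are classical E2F targets. The letters TTTGGCGC, TTTCGCGC, TTTCCCGC and TTTGCCGC were searched on both strands, and 1.86% of the windows of all genes held at least 1. Capitals mark the matches, which overlap where a run in capitals is longer than 8.
Mcm6, chr1:128359706-128359955 (- strand): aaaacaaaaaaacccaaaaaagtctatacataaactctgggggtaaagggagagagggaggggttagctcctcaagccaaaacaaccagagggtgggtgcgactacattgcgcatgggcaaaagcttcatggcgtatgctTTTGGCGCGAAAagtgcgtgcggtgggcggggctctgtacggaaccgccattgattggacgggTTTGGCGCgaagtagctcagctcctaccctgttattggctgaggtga
Mcm5, chr8:75109259-75109508 (+ strand): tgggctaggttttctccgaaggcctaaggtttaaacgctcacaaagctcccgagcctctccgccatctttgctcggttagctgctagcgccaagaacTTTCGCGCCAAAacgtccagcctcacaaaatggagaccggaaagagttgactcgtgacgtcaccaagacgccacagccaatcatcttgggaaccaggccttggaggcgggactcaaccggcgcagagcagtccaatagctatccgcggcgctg
Mcm6 held 3 matches, 110, 106 and 47 bases before its start, and Mcm5 held 2, at 153 and 149. Mcm7, whose mRNA was not called, held 1 in the window of 1 of its 2 starts, and Mcm2 and Mcm3, which were called, held none. Windows were at hand for 5 of the 6 Mcm genes, not for Mcm4, which was called and could not be searched.

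Among the other p53 targets 25 of 32 were tested, 18 were higher and 7 lower with a median of 0.11, and 4 were called, all higher, which is 16.0% beside 4.92% of all tested genes. Bbc3, which encodes the apoptosis inducer Puma, was 8.61 to 10.23 in Floxed mice (median 9.40) and 9.95 to 10.91 in LKO mice (median 10.32). Of the LKO mice, 4 exceeded every Floxed mouse, and the difference was 0.95 (limma p = 0.00234, adjusted p = 0.307, exact permutation p = 0.00649). Btg2, an antiproliferative gene, differed by 0.87, Ddit4, an inhibitor of mTOR that glucocorticoids and low energy also induce, by 0.53, and Phlda3, a repressor of Akt, by 0.33. Btg2 was called within the slide block too, at 1.30, and Bbc3, at 0.53, Ddit4, at 0.31, and Phlda3, at 0.54, were not. Without the arrays labeled LKO 1 and LKO 2, Bbc3 (0.99), Btg2 (0.67) and Ddit4 (0.60) were called and Phlda3 (0.31) was not. In that fit 4 of the 25 genes were called, 3 higher and 1 lower. The widely used p53 readouts Bax (-0.02), Ccng1 (0.13), Zmat3 (0.06) and Sesn1 (0.14), named for that use after their values were seen, were not called. Other targets, also named after their values were seen, differed more. Gdf15 (1.14) had the largest rise of the 25 genes and Plk3 (-0.51) the largest fall, and neither was called. Trp53inp1 was 0.14 and not called, whereas a second, dimmer probe of it, well above background on 12 arrays, gave 0.56. With Cdkn1a the 25 genes had a median r of 0.20, beside -0.01 for all genes, and 21 (84.0%) were positive, beside 48.5%. With Trp53 the median was -0.07, beside -0.001 for all genes, and 8 (32.0%) were positive, beside 49.9%.

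Of 17 tested regulators of p53, 1 was called, 5.88% beside 8.35% of all tested genes, which is no result about the list. It was the acetyltransferase gene Ep300 (-0.49), whose product also acetylates many other proteins. Ep300 was -0.41 and not called with the slide held constant, and -0.59 and called without the arrays labeled LKO 1 and LKO 2. The Gadd45 paralogs Gadd45b (0.14) and Gadd45g (-0.40), and Gadd45gip1 (0.08), which encodes a protein that binds Gadd45 proteins, were tested and not called, and are given as relatives of a member. Gadd45b and Gadd45g also scattered between mice, with SDs of 0.74 and 1.45 in Floxed mice and 0.93 and 1.34 in LKO mice. The SDs of Gadd45a were smaller, 0.61 in Floxed and 0.56 in LKO mice. Over the 12 livers the 3 relatives had r between -0.36 and -0.31 with Gadd45a.

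**Figure D5:**
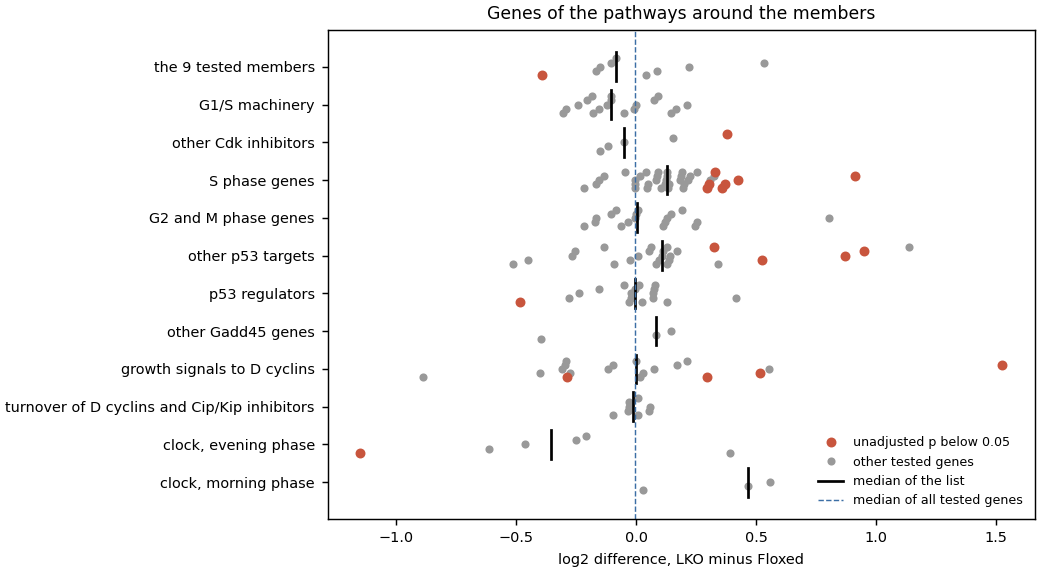
Log2 difference, LKO minus Floxed, of each tested gene, by list, with called genes in red, others in grey, the median of a list as a black bar and that of all tested genes as a dashed line. Called genes of the S phase list and of the other p53 targets lie to the right of 0, and the lists of the G1/S machinery and of G2 and M phase hold none.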

How the data were processed

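Total liver RNA of 6 Floxed and 6 LKO mice was labeled with cyanine 3 and read on 12 Agilent arrays, 1 mouse per array. The kit for RNA differs between the paper's methods (RiboPure) and the labels (TRIzol with a Promega column). The authors deposited the intensity of each spot from Agilent Feature Extraction, version 10.7.1.1 in the file headers and 9.5.1.1 in the submitters' processing notes, and a table of quantile-normalized intensity.

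Control spots were left out, the background-corrected intensity was log2-transformed and quantile-normalized, outlier spots (0.298%) were set missing and spots of a probe averaged. Kept were 20404 probes well above background (on at least 0.5 of their spots) on all 12 arrays and missing on at most 3. The brightest probe stood for its gene. Symbols came from RefSeq accessions in a GRCm38.p6 table (94.2% of 28389 matched). Genotypes were compared with limma 3.58.1 in R 4.3.3 (lmFit, eBayes, no covariate), called at unadjusted p below 0.05, with Benjamini-Hochberg values beside it. Single values had a two-sided exact permutation test, and correlations 100000 permutations. The code was tested on simulated data. Named are the 10 members, at most 4 called genes per list by size, Phgdh, and the 3 genes most like each called member. Others are said to be chosen later, and all called S phase genes and markers are named. Members and lists were chosen with earlier results of these data known. Alternatives covered normalization, background, the authors' table, dim probes, outliers, probes per gene, test, threshold, slide, replicate number and each array left out. Those for the S phase and p53 lists, and leaving out both arrays labeled LKO 1 and LKO 2, were added after seeing the data. Each array was a different mouse per the labels. A gene among those most like Cdkn1a is not reported here.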

Additional observations from a re-analysis of the deposited data

Results flagged for a closer look

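Dixon's criterion for 1 liver far from the rest of its group was applied to 56 groups of 6 livers, the 10 members and the named genes in each genotype, and 7 passed, where chance gives about 2.8. In LKO mouse 5, Cdk6 was lowest at 1.33 (next value 2.95; most arrays not well above background), Cdkn1b was lowest at 9.16 (next 9.55), Mcm5 was highest at 7.95 (next 7.40) and Mcm2 was highest at 7.45 (next 6.84). Btg2 was highest at 6.90 in Floxed mouse 1 (next 5.91) and at 7.98 in LKO mouse 1 (next 6.68). Ep300 was lowest at 6.29 in Floxed mouse 2 (next 6.78).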

How the results depend on the processing

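The call of Ccnd1 was lost only with slide as a fixed block (-0.42) and at stricter thresholds. With each array left out it ran from -0.46 to -0.31, and its adjusted p over all settings from 0.185 to 1. Of 234 member values under alternatives, 228 kept their sign and their side of the threshold. Slide as a fixed block turned the sign of Cdk4 (-0.066), Mdm2 (0.17) and Gadd45a (-0.34), and so did leaving out LKO replicate 3 for Mdm2 (0.017; range over the arrays left out -0.17 to 0.017), none of them called. The cause was not tested.

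With slide as a fixed block, which compares the genotypes within slide 2, 317 genes, 0 members, 1 S phase gene and 1 other p53 target were called, in place of 1413, 1, 7 and 4. At an adjusted p below 0.05 0 were called in each (limma; the unadjusted counts are those just given), and 1 gene and 0 of the others by the methods' t-test, which called 1236 unadjusted. With an absolute difference of at least 1 as well, 88 genes and 0 of the others were called. Keeping dim probes gave 2791 calls over 32523 genes. Without LKO replicates 1 and 2, 2172 genes were called, 571 of them at the adjusted threshold, and 7 S phase genes and 4 other p53 targets. The 7 S phase genes were all higher, and of the 4 p53 targets 3 were higher and 1 lower. Scaling to the 75th percentile moved the split of calls from 832 higher and 581 lower to 1127 and 316. Other p53 targets numbered 6 with normexp, with the mean over probes and with slide as a random block, 5 higher and 1 lower each time. Leaving out 1 array gave 1103 to 1837 genes, 1 member each time, and 4 to 11 S phase genes (4 without LKO mouse 5, 11 without Floxed mouse 6). It gave 3 to 7 other p53 targets (7 without Floxed mouse 5, 5 higher and 2 lower). With the replicate block 1428 genes, 1 member (Ccnd1), 5 S phase genes and 5 other p53 targets (4 higher and 1 lower) were called. Of the genes named in those lists Mcm3, Chaf1a and Ddit4 lost their calls, as did Lgr5. The standard error of Btg2 fell from 0.30 to 0.079. Same-numbered mice have neighboring animal numbers and the groups were littermates, but the labels do not say that a number marks a litter. Their deviations had r from -0.24 to 0.32, and only the mice numbered 4 correlated best with each other.

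With 6 mice per group, a single slide holding both genotypes and neither RNA quality nor hour of dissection in the labels, slide and genotype can be told apart only within slide 2, by the arrays labeled LKO 1 and LKO 2, whose Phgdh lay inside the Floxed range. Intensity near background limits Cdk6 and the genes of G2 and M phase.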
